A study of Rattus norvegicus with 10 samples.

Results

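The genes described here make, sense, move and remove cholesterol in pancreatic islets, and they were read in rats after a short spell on 1 of 2 diets. The list was drawn up from textbook roles, with earlier results of these data known, and holds 34 genes. Each gene was read from the probeset that carries its symbol alone in the platform annotation and has the highest mean signal over the 10 arrays. That gave values for 32 of the 34 genes, out of 14217 genes with a symbol of their own on the array; no probeset carried only the symbol Hmgcs1 or Npc1, and these 2 genes have no value. All 32 lay above the filter on low signals, which kept probesets whose mean log2 value over all arrays exceeded the 40th percentile.

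Islets, the clusters of hormone-secreting cells of the pancreas, came from male Wistar rats aged 7 weeks, each weighing 225 to 250 g and caged alone. The standard group (5 arrays) ate chow with 8% of its calories from fat, and the cafeteria group (5 arrays) ate a cafeteria diet with 66% of its calories from fat, both for 10 days; the labels name no transgene and no drug. The arrays carried independent samples, and expression was read on a 1-colour Affymetrix array of rat genes, in MAS5 signal units. In 10 of 10 samples the diet characteristic states the opposite diet from the title, the source name and the description. The groups follow the titles; if the characteristic were right, every sign given here would turn and every size and p-value would stay.

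Cholesterol is built in the endoplasmic reticulum from acetyl-CoA through mevalonate, squalene and lanosterol. When membrane sterol falls, the protein Scap carries the transcription factor SREBP2 out of that compartment, and cleaved SREBP2 switches on the genes of the synthesis enzymes; when sterol is plentiful, the Insig proteins hold Scap back. Sterol excess is met by other means: oxysterols activate the nuclear receptors LXRα and LXRβ, which switch on the exporters ABCA1 and ABCG1, and 25-hydroxycholesterol also strengthens the hold of Insig on Scap. In β-cells cholesterol shapes the insulin granule membrane, and its build-up is known to impair insulin secretion.

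The arrays were alike in scale because their values had been scaled, with a trimmed mean of 500.1 to 500.2 on each. Median signals ran from 150.8 to 173.2, and pairs of arrays correlated with r from 0.955 to 0.982 across tested probesets. Of 16 islet genes on a list of defining markers 13 were measured and all 13 passed the filter, with Pdx1 lowest at percentile 90.7 of the probesets and Ins1 at 99.8, so the labelled tissue matched its markers. Markers of other pancreatic and immune cells were read too. The log2 means of 11 acinar, 17 macrophage and 12 lymphocyte markers ran from 9.61 to 10.81, 7.53 to 8.48 and 6.25 to 7.81 on the standard arrays and from 8.50 to 10.70, 7.59 to 8.70 and 6.11 to 7.17 on the cafeteria arrays. Among them 3 macrophage markers (Cd163, Itgam and Adgre1) and 7 lymphocyte markers (among them Cd3d, Cd4 and Cd8a) lay below the filter, and no acinar marker did. In whole islets, fewer cells of a type and less RNA per cell cannot be told apart.

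Across the synthesis arm, the genes controlled by SREBP2, signals were higher in the cafeteria group, while in the efflux and oxysterol arm the genes went both ways and the one with the lowest p, Ch25h, was lower. Of 18 measured synthesis genes 17 were higher and 1 lower, with a median log2 difference of 0.20. Over all 18625 probesets tested 51.4% were higher and 48.6% lower, with a median of 0.0056. With quantile normalization 16 of the 18 synthesis genes were higher, beside 49.1% of all probesets, and with median centring 15, beside 42.9%. The islet markers were mostly higher too: 11 of 13 were higher and 2 lower, with a median of 0.19, 4 higher at an unadjusted p under 0.05 (among them Chga at 0.28 and Gcg at 0.23) and 1 lower (Pdx1, −0.21). Their part in the synthesis result was not tested. Of 7 efflux and oxysterol genes 3 were higher and 4 lower, with a median of −0.06. None of the 32 genes passed limma's test adjusted over all probesets (adjusted p from 0.398 to 0.990), nor did any other probeset (0 of 18625, or 0%). At an unadjusted p under 0.05, 9 of the 32 were higher and 1 was lower. Of all probesets 10.4% reached that level, 5.51% higher and 4.91% lower. These counts are a description, since the genes were chosen with earlier results of these data known.

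**Figure D1:**
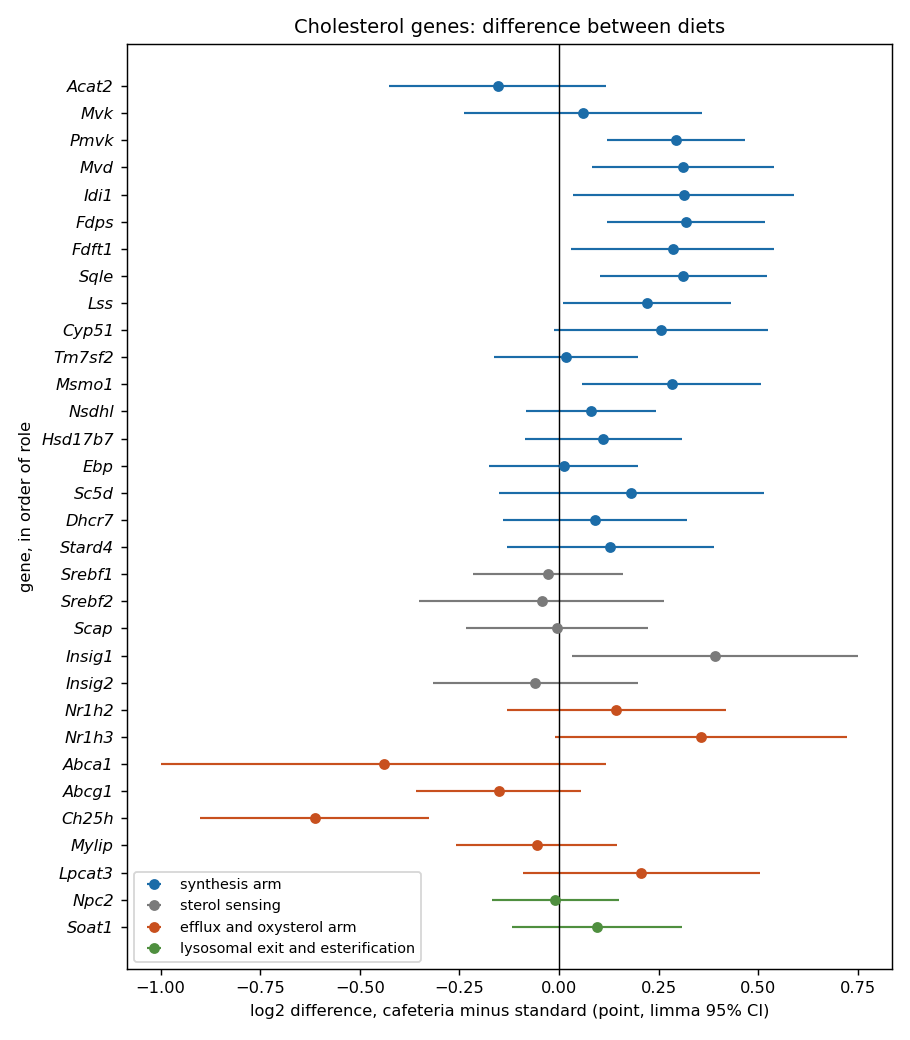
Log2 difference between diets (cafeteria minus standard, x axis) for each of the 32 measured genes, listed by role on the y axis; points are limma estimates, lines their 95% confidence intervals, and colours the 4 roles. In the synthesis arm 17 of 18 points lie right of 0 (15 with median centring and 16 with quantile normalization), Insig1 stands apart from the other 4 sensing genes at 0.39, and Ch25h is the point farthest left at −0.61.

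The first reactions of the route lead from acetyl-CoA to farnesyl diphosphate. Of the 6 measured genes of this stretch 5 were higher and 1 lower. Pmvk encodes phosphomevalonate kinase, which adds the second phosphate to mevalonate. Its signals were 353.4, 343.5, 379.6, 388.9 and 339.0 on standard arrays 1 to 5 and 487.4, 452.9, 440.6, 395.5 and 452.1 on cafeteria arrays 1 to 5. All 5 cafeteria values lay above all 5 standard values, although cafeteria 4 exceeded standard 4 by only a small margin. The means were 360.9 ± 22.2 and 445.7 ± 33.1 (SD, n = 5 each). The log2 difference was 0.29 (SE 0.079, 95% confidence interval 0.12 to 0.47), a 1.23-fold higher level with a limma adjusted p of 0.398.

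Fdps encodes farnesyl diphosphate synthase, whose product feeds both sterols and the lipid anchors of small GTPases. It was the other synthesis gene whose groups did not overlap: standard arrays read 1852, 1694, 1632, 1848 and 1821, and cafeteria arrays 1924, 2047, 2489, 2191 and 2432. The log2 difference was 0.32 (SE 0.090, interval 0.12 to 0.52, limma adjusted p = 0.398). Thus 2 of 18 synthesis genes had cafeteria arrays all above the standard arrays, beside 0.988% of all probesets, and none had them all below. Over all 32 genes 3 did not overlap in either direction, beside 2.44% of all probesets.

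Mvd encodes the decarboxylase that turns mevalonate diphosphate into the first isoprene unit. It read 149.2, 190.5, 153.6, 154.6 and 151.2 on the standard arrays and 186.3, 199.96, 236.0, 168.4 and 220.5 on the cafeteria arrays, for a log2 difference of 0.31 (SE 0.104, limma adjusted p = 0.412). The groups overlapped through standard 2 alone, which stood above cafeteria 1 and cafeteria 4. Idi1, the isomerase that makes the second isoprene unit, read 1701, 2057, 1894, 1977 and 1775 on the standard arrays and 1909, 1999, 2842, 2252 and 2839 on the cafeteria arrays, a log2 difference of 0.31 (SE 0.126, adjusted p = 0.444). Cafeteria 1 and 2 lay inside the standard range and cafeteria 3 and 5 well above it. A second, dimmer probeset of Idi1 differed by 0.55 (SE 0.168), with cafeteria 3 highest again at 1173.

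Mvk, the mevalonate kinase gene, and Acat2, which encodes the cytosolic thiolase that joins acetyl-CoA units, had differences near or under 0. Mvk differed by 0.06 (SE 0.136), and cafeteria 5 had the lowest of its 10 signals at 188.9. Its second probeset above the filter differed by 0.42 (SE 0.151), at a dim mean of 84.9 in the standard group. Acat2 was the single synthesis gene that was lower, at −0.15 (SE 0.124, interval −0.43 to 0.12), again with cafeteria 5 lowest of all arrays at 509.6; without cafeteria 5 the difference was −0.047.

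From farnesyl diphosphate onward, all 11 genes of the sterol stretch were above 0, from 0.01 for Ebp to 0.31 for Sqle, with a median of 0.18; Ebp turned with quantile normalization, and Ebp and Tm7sf2 with median centring. Sqle encodes squalene epoxidase, a rate-limiting oxygen-dependent step. It read 722.2, 634.7, 606.9, 773.7 and 747.6 on the standard arrays and 758.1, 843.3, 905.9, 873.4 and 956.7 on the cafeteria arrays. The groups overlapped only because standard 4 lay above cafeteria 1. The log2 difference was 0.31 (SE 0.095, interval 0.10 to 0.52, limma adjusted p = 0.398).

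Fdft1, squalene synthase, commits farnesyl diphosphate to sterols. Its standard signals were 934.3, 1296, 896.2, 1118 and 1027 and its cafeteria signals 1108, 1253, 1389, 1207 and 1457, a log2 difference of 0.29 (SE 0.116, adjusted p = 0.447). Here too standard 2 was the array that reached into the cafeteria range most. Its second probeset differed by 0.15 (SE 0.108).

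Lss encodes lanosterol synthase, which folds squalene epoxide into the first sterol. The standard arrays read 726.4, 953.8, 933.8, 902.6 and 827.8, and the cafeteria arrays 870.5, 1058, 1033, 1049 and 1054, a log2 difference of 0.22 (SE 0.096, adjusted p = 0.464). The last 4 cafeteria values lay above every standard value, and cafeteria 1 lay inside the standard range. A dim second probeset of Lss, with means of 126.4 (standard) and 226.8 (cafeteria), differed by 0.87 (SE 0.268).

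Msmo1, the methylsterol monooxygenase that strips methyl groups from lanosterol products, read 2908, 2789, 2475, 2663 and 2683 on the standard arrays and 2772, 3059, 4011, 3226 and 3504 on the cafeteria arrays. Its log2 difference was 0.28 (SE 0.102, interval 0.06 to 0.51, adjusted p = 0.422), and cafeteria 1 was again the lowest cafeteria array. Cyp51, the demethylase that acts before it, differed by 0.26 (SE 0.122) from its brightest probeset and by 0.29 (SE 0.114) from a second one. Of the late enzymes, Sc5d, Hsd17b7, Dhcr7 and Nsdhl differed by 0.18, 0.11, 0.09 and 0.08, and the sterol reductase Tm7sf2 and the isomerase Ebp by 0.02 and 0.01. The 3 probesets of Sc5d disagreed in direction, the others being at 0.35 (SE 0.182) and −0.07 (SE 0.109), and without standard 5 its brightest probeset differed by only 0.04. Stard4, a soluble sterol carrier and SREBP2 target, differed by 0.13 (SE 0.118) from its brightest probeset and by 0.45 (SE 0.105) from a dimmer one.

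The start regions are shown for Fdps, Idi1, Msmo1, Insig1 and Ch25h. Windows from 250 bases before to 50 bases after the annotated start were taken from RefSeq, assembly GRCr8, and held 29 of the 34 genes. Pmvk, Fdft1, Sqle, Stard4 and Abcg1 had no window in the set used here. Capitals mark CCAAT, the core bound by NF-Y, a factor known to act beside SREBP2, on either strand (ATTGG on the other), and TCACNCCA, a shortened sterol regulatory element (SRE). Each window runs 5′ to 3′ on the strand of its gene. Fdps lies at chr2:176804767-176805066 (minus strand), Idi1 at chr17:66547475-66547774 (minus), Msmo1 at chr16:29746863-29747162 (plus), Insig1 at chr4:8057720-8058019 (minus) and Ch25h at chr1:241429317-241429616 (minus).
Fdps: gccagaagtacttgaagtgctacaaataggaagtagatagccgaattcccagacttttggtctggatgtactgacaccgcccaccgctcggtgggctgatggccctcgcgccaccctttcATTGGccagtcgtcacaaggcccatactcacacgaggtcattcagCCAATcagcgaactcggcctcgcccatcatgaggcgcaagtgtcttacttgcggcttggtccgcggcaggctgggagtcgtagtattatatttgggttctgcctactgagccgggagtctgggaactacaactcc
Idi1: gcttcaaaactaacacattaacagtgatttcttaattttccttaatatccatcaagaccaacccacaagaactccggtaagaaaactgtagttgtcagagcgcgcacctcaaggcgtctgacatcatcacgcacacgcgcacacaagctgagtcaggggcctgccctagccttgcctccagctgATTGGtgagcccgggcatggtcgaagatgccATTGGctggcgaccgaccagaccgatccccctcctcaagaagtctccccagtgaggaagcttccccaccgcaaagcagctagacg
Msmo1: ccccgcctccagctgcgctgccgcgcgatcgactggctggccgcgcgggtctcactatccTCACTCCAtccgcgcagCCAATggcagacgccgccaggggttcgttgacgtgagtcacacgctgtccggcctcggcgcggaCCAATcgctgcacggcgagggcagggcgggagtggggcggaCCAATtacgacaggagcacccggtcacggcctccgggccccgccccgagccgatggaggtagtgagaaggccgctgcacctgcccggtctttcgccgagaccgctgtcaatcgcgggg
Insig1: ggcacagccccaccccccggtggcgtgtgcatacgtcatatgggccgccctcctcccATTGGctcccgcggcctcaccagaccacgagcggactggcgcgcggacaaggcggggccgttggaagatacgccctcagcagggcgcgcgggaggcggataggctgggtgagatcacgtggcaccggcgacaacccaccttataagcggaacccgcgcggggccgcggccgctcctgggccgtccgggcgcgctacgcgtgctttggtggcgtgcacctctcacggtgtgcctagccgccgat
Ch25h: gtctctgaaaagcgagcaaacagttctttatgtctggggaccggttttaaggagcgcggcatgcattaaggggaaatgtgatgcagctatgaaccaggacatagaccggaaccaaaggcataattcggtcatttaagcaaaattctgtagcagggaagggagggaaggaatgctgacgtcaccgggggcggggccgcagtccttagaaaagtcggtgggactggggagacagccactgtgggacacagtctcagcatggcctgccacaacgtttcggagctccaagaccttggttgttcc
CCAAT was found for 12 of the 15 synthesis genes, 4 of the 5 sensing genes and 2 of the 6 efflux and oxysterol genes with a window. It was also found for 2 of the 3 genes of lysosomal exit and esterification, Npc1 lacking it. Over all 33469 windows of this length the share was 37.5%, counted per window, while Srebf1 alone of the genes has 2 windows. The synthesis windows without it were those of Acat2, Cyp51 and Dhcr7, and the 15 include Hmgcs1, which has no expression value. Fdps, Idi1, Msmo1 and Insig1, shown above, all have it. Fdps carries it 130 and 85 bases before its start, Idi1 at 66 and 35, and Msmo1 at 173, 109 and 68. In Insig1 the match lies 193 bases before the start, and the Ch25h window has none. The full SRE consensus TCACNCCAC was in none of the 29 genes' windows and in 1.12% of all windows. Its first 8 letters, TCACNCCA, searched after the full form was not found, occurred in Msmo1, 190 bases before the start, and in Srebf2, beside 3.89% of all windows. The LXR element DR4, searched as GGTCA repeated with 5 bases between (AGGTCA hexamers 4 bases apart), was in no member window and in 0.0717% of all windows, which says only that these letters were not in the windows. These matches are letters in a sequence, not measured binding.

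Read array by array, the synthesis genes were not higher by the same amount on every cafeteria array. The number of the 18 genes above their own median over the 10 arrays was 17 on cafeteria 3, 14 on cafeteria 2, 14 on cafeteria 5, 13 on cafeteria 4 and 7 on cafeteria 1. On the standard arrays it was between 2 and 7. The mean log2 value of the arm was 9.53, 9.55, 9.76, 9.57 and 9.66 on cafeteria arrays 1 to 5 and between 9.40 and 9.49 on the standard arrays. Cafeteria 3 was the highest, and cafeteria 1 lay only just above standard 2. No p-value is given for these means.

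**Figure D2:**
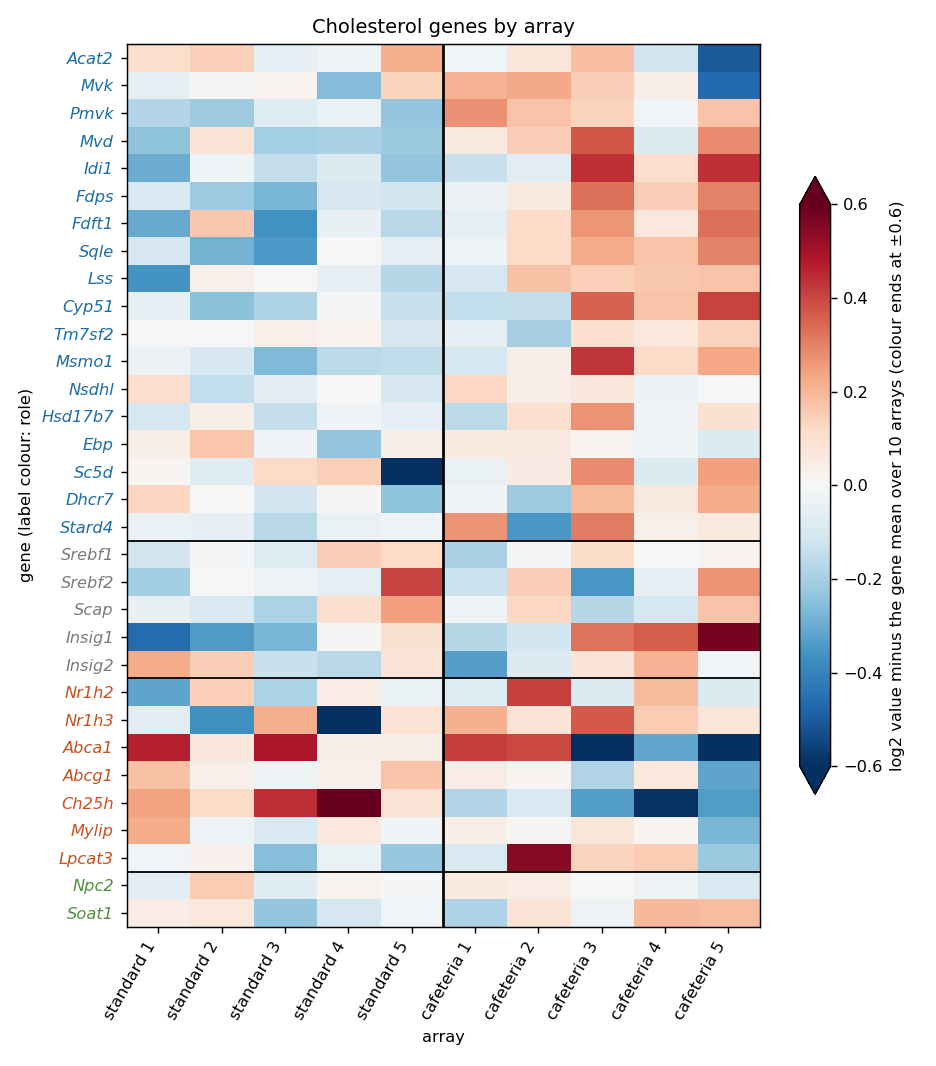
Heat map of the 32 genes (rows, label colour by role) on the 10 arrays (columns), each cell the log2 value minus the gene's mean over the arrays, red for higher and blue for lower. The upper block, the synthesis genes, is mostly red on cafeteria arrays 2 to 5, where 13 to 17 of 18 genes lie above their median, and mixed on cafeteria 1, with 7; Abca1 is blue on cafeteria 3, 4 and 5 and red on cafeteria 1 and 2.

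The genes that sense sterol included 4 of 5 with differences between −0.06 and 0. Insig1, the Insig form whose gene is itself an SREBP target, was the exception. Its signals were 891.0, 972.0, 1016, 1241 and 1316 on the standard arrays and 1094, 1139, 1548, 1590 and 1842 on the cafeteria arrays. Cafeteria 3, 4 and 5 stood above every standard array, while cafeteria 1 and 2 fell within the standard range. In both groups the signals rose from array 1 to array 5, and each cafeteria array lay above the standard array of its number. The log2 difference was 0.39 (SE 0.163, interval 0.03 to 0.75), a 1.31-fold higher level (limma adjusted p = 0.453).

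Insig2, the form that is less tied to SREBP, differed by −0.06 (SE 0.117) from its brightest probeset and by 0.20 (SE 0.154) from another, so its probesets disagreed in direction. Srebf2, the gene of SREBP2 itself, was at −0.04 (SE 0.140, interval −0.35 to 0.26) and Scap, the escort protein, at −0.01 (SE 0.104, interval −0.23 to 0.22), with a second, dimmer Scap probeset at 0.07 (SE 0.246). Srebf1, whose product favours fatty acid synthesis and which is also an LXR target, was at −0.03 (SE 0.085) from its brightest probeset and at 0.33 (SE 0.128) from a dimmer one.

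**Figure D3:**
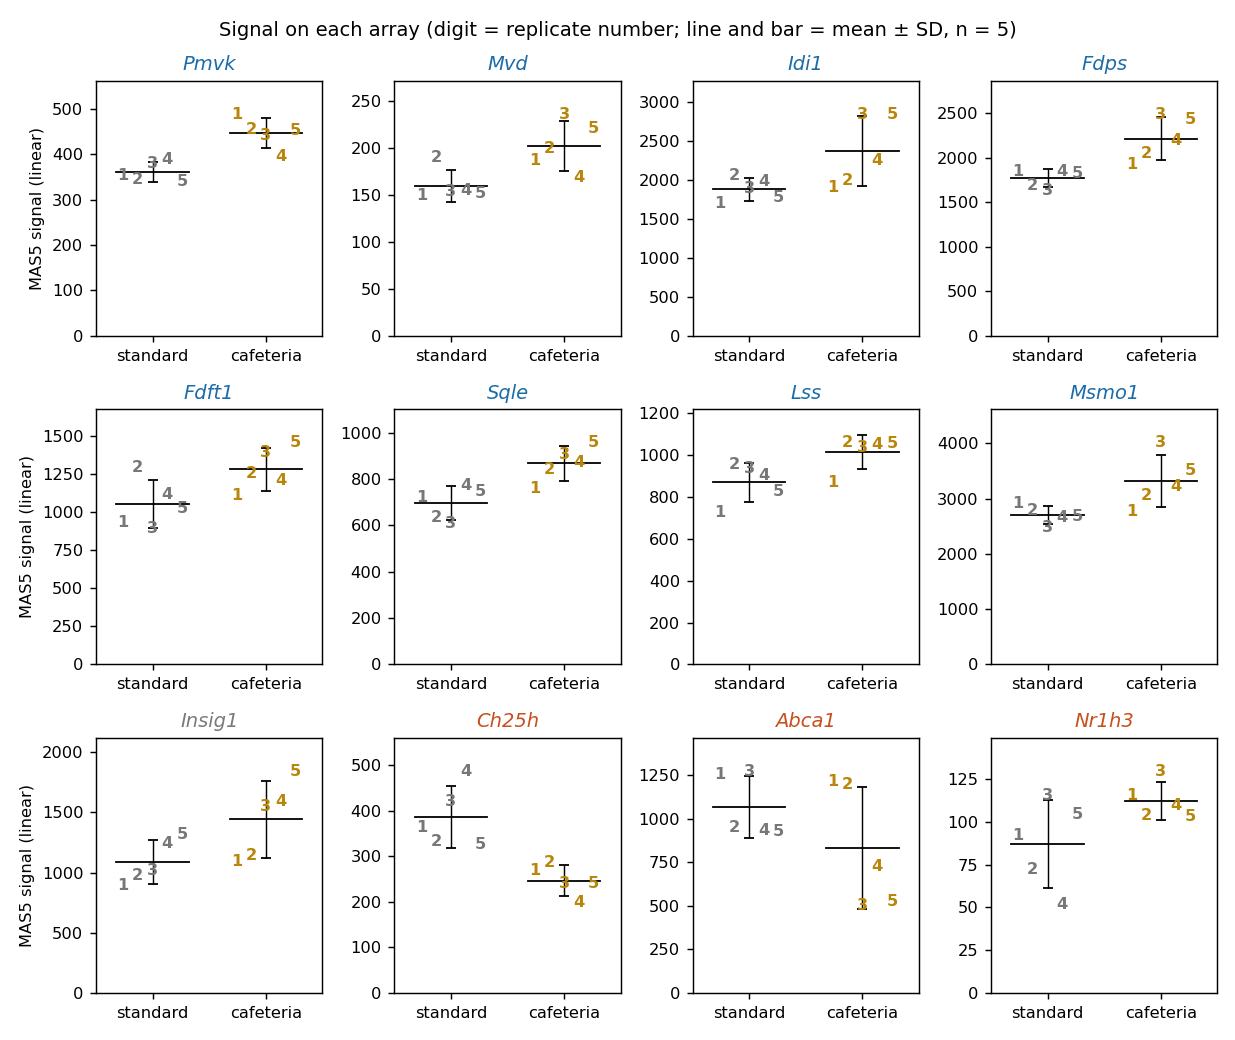
MAS5 signal (linear y axis from 0) on each array for 12 of the genes described, with standard on the left and cafeteria on the right of each panel; digits are replicate numbers, horizontal lines the means and bars the SD (n = 5). Pmvk, Fdps and Ch25h are the panels without overlap, and in Abca1 the cafeteria arrays split, 1 and 2 at 1212 and 1196 and 3 to 5 between 503.8 and 725.2.

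In the efflux and oxysterol arm, the lowest p belonged to Ch25h, which encodes cholesterol 25-hydroxylase, the enzyme that makes 25-hydroxycholesterol. Its signals were 363.5, 332.3, 421.1, 486.5 and 325.7 on the standard arrays and 268.6, 286.5, 239.4, 197.6 and 239.1 on the cafeteria arrays. Every cafeteria array lay below every standard array, which was the case for 1 of the 7 genes of the arm, beside 1.45% of all probesets. The means were 385.8 ± 67.7 and 246.2 ± 33.8 (SD, n = 5 each). The log2 difference was −0.61 (SE 0.130, interval −0.90 to −0.33), a 1.53-fold lower level with a limma adjusted p of 0.398, and 1.17% of all probesets had a difference of at least this size in either direction. Ch25h is also made by activated macrophages. Of 17 macrophage markers 3 were higher and 14 lower, and their index differed by −0.12 (exact permutation p = 0.683, two-sided), with the ranges given above. Of the higher ones Cd163 and Itgam lay below the filter, and Mrc1, at 0.08 (SE 0.318), lay above it. The 14 markers above the filter had a median difference of −0.12 and a lowest unadjusted limma p of 0.0923. The index includes the markers below the filter. With that index in the model the Ch25h difference was −0.62. Whether macrophages or other cells were the source of the Ch25h signal was not tested.

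Abca1 encodes the transporter that hands cholesterol to lipid-poor apolipoprotein particles, and its loss from β-cells is known to raise islet cholesterol. It read 1254, 947.0, 1273, 930.7 and 929.5 on the standard arrays and 1212, 1196, 503.8, 725.2 and 522.6 on the cafeteria arrays. Cafeteria 3, 4 and 5 were below all standard arrays and cafeteria 1 and 2 among the higher standard ones, so the cafeteria SD was 350.5 against 179.8. The log2 difference was −0.44 (SE 0.254, interval −0.998 to 0.12, limma adjusted p = 0.542). Without cafeteria 1 it was −0.60 and without cafeteria 2 −0.59, and in these cases alone among the 24 alternatives Abca1 had an unadjusted p under 0.05. The other 3 probesets of Abca1 were also below 0, at −0.24 (SE 0.096), −0.22 (SE 0.114) and −0.46 (SE 0.284). The split among the cafeteria arrays did not show in all of them: the probeset of mean 708.8 in the standard group ran only from 565.6 to 633.8 in the cafeteria group. It was seen again in the probeset of mean 875.5, at 890.5 and 811.4 on cafeteria 1 and 2 and 451.5, 592.3 and 395.2 on the rest.

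From the brightest probesets, the 3 arrays with the lowest Abca1 signals, cafeteria 3, 4 and 5, were also the 3 with the highest Insig1 signals. They also had the 3 highest Cyp51 signals (3357, 2951 and 3476, beside 2366 and 2378 on cafeteria 1 and 2). Among the standard arrays, 4 and 5 likewise had the highest Insig1 signals (1241 and 1316) and the lowest Abca1 signals (930.7 and 929.5). Cyp51 did not follow there, with standard 4 highest at 2603 and standard 1 next at 2514. Other probesets did not all repeat these orders. The Abca1 probeset of mean 708.8 in the standard group had cafeteria 3 as its highest cafeteria array, at 633.8. The Abca1 probeset of mean 235.4 was highest on standard 4 (261.5) and next on cafeteria 4 (255.1). In the second Cyp51 probeset cafeteria 2 (656.5) lay close to cafeteria 4 (661.6). These orders were noticed after the values were seen, among 32 genes and 10 arrays, and are given as a description.

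Abcg1, the exporter to mature high-density lipoprotein, differed by −0.15 (SE 0.094, adjusted p = 0.569). Its standard signals were 3583, 3238, 3104, 3242 and 3579 and its cafeteria signals 3272, 3202, 2800, 3311 and 2541, and the groups overlapped with cafeteria 3 and 5 lowest. Its other 2 probesets, much dimmer, were at −0.18 (SE 0.157) and 0.30 (SE 0.259) and disagreed in direction.

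Of the LXR genes, Nr1h3 (LXRα) read 92.0, 72.0, 115.3, 51.5 and 104.2 on the standard arrays and 115.0, 103.7, 129.5, 109.5 and 103.0 on the cafeteria arrays. It was dim, at percentile 40.5, just above the filter, and the log2 difference of 0.36 (SE 0.167, interval −0.01 to 0.72, adjusted p = 0.481) came with standard 2 and 4 as its lowest arrays. Without standard 4 the difference was 0.21. Nr1h2 (LXRβ) differed by 0.14 (SE 0.125). Mylip, an LXR-induced ubiquitin ligase that marks lipoprotein receptors for breakdown, was at −0.06 (SE 0.092), and Lpcat3, an LXR target that builds polyunsaturated phospholipids, at 0.21 (SE 0.136), with cafeteria 2 highest at 3284. Thus the LXR genes and 1 of their targets had positive differences, and both exporters negative ones from the brightest probesets, none past the test.

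Of the 3 genes for sterol leaving the lysosome and for its storage, 2 were measured. Npc2, the lysosomal sterol carrier, was at −0.01 (SE 0.073, interval −0.17 to 0.15), the narrowest interval of the 32 genes. Soat1, which esterifies cholesterol for storage, was at 0.10 (SE 0.097) from its brightest probeset and 0.26 (SE 0.179) from the other.

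**Figure D4:**
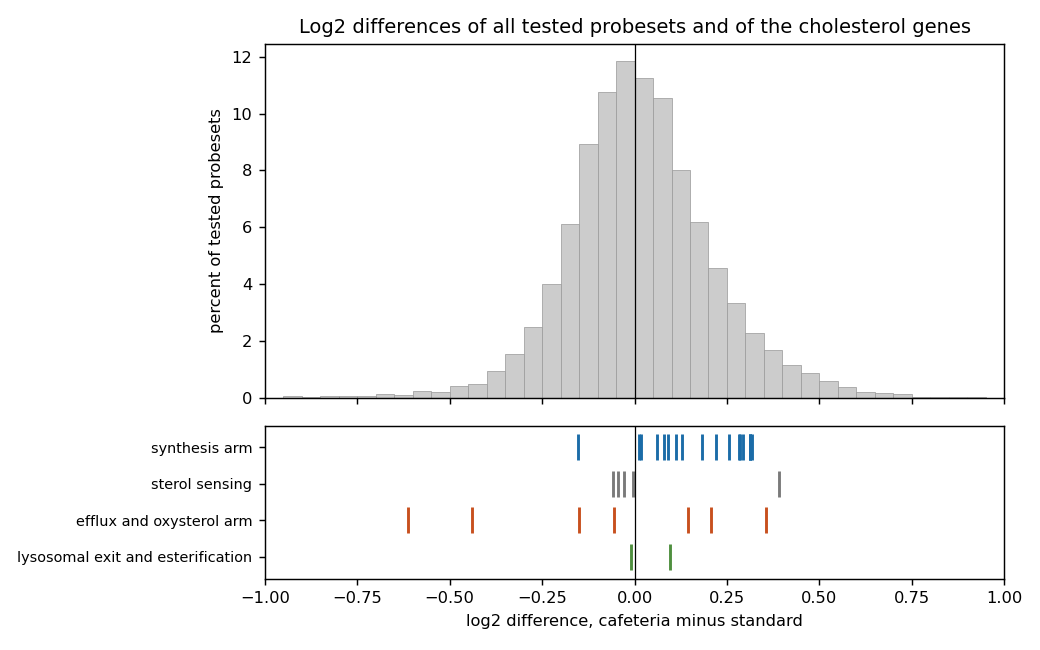
Histogram of the log2 differences (cafeteria minus standard) of the 18625 tested probesets in steps of 0.05, shown from −1 to 1, above the differences of the 32 genes marked by role. The histogram has its median at 0.0056, the synthesis marks have theirs at 0.20, and the efflux and oxysterol marks spread from −0.61 to 0.36.

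Other genes of the pathway were taken from lists by role. In the list for SREBP processing and its turnover, 10 of 13 genes were measured, 4 higher and 6 lower, with a median of −0.04; at an unadjusted p under 0.05, 2 were higher. They were Vcp (0.38, SE 0.097), an ATPase that pulls proteins out of the endoplasmic reticulum membrane, and Tmem97 (0.35, SE 0.145), an SREBP target; Mbtps1, the first SREBP protease, was at 0.22 (SE 0.120). Vcp also serves general protein quality control. Of 22 genes for sterol binding, uptake and transport 19 were measured, 12 higher and 7 lower (median 0.05). Scarb1, the high-density lipoprotein receptor, was at 0.46 (SE 0.148), the caveolin gene Cav1 at −0.27 (SE 0.109) and the lipoprotein receptor gene Vldlr at −0.16 (SE 0.083).

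In the branch from farnesyl diphosphate to prenyl groups, dolichol and ubiquinone, 11 of 12 genes were measured, 9 higher and 2 lower with a median of 0.05. Those with the lowest p were Dhdds (0.40, SE 0.115), which builds dolichol, Fntb (0.28, SE 0.096), a farnesyltransferase subunit, and Rabggta (0.24, SE 0.106), a subunit of the enzyme that prenylates Rab proteins. Of 13 further LXR targets 12 were measured and 8 lay above the filter; 6 were higher and 6 lower (median 0.004), and none reached an unadjusted p under 0.05. Fasn, fatty acid synthase, was at 0.08 (SE 0.067), Acaca at −0.14 (SE 0.102) and the transporter Abca7 at 0.20 (SE 0.142). Of 7 genes put on a list for oxysterols besides Ch25h, only Hsd3b7 (0.34, SE 0.171) and Ephx1 (0.31, SE 0.111) lay above the filter. Whether Ephx1 has a part in oxysterol handling was not tested. No gene in these lists passed limma's adjusted test.

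RNA quality and cell content were read beside these values. The log2 ratio of 3′ to 5′ Gapdh control signal, which rises with degraded RNA, averaged 0.21 on standard arrays and 0.0084 on cafeteria arrays (exact permutation p = 0.0238, two-sided; 0.214 adjusted over 9 quality and marker measures), and for beta-actin these averages were 1.49 and 1.40 (p = 0.405 by the same exact test). With the Gapdh ratio in the model the synthesis median was 0.16, and 15 of 18 genes were higher, beside 48.9% of all probesets. In that fit 4 synthesis genes had an unadjusted p under 0.05 on the higher side, and Acat2 (−0.37) reached it on the lower side. Ch25h was then at −0.49. The lymphocyte index differed by −0.62 (exact permutation p = 0.0952), the acinar index by −0.45 (exact permutation p = 0.357) and the duct, endothelial, stellate and adipocyte indices by 0.12, 0.04, −0.04 and −0.23 (exact permutation p from 0.167 to 0.722). After adjustment over the 9 measures these p-values lay between 0.429 and 0.722. Gene by gene, of 11 acinar markers 2 were higher and 9 lower. At an unadjusted limma p under 0.05, 3 acinar markers were lower (Pla2g1b −1.23, Amy2a3 −1.17 and Cela1 −0.78) and 0 higher, beside 4.91% of all probesets lower. Of 12 lymphocyte markers 2 were higher and 10 lower, and of the 5 above the filter 2 were lower at that level. With the acinar index in the model the synthesis median was 0.16, 5 synthesis genes had an unadjusted p under 0.05 (Idi1, Fdft1 and Lss no longer did) and Ch25h was at −0.70; the part of the lymphocyte index was not tested.

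**Figure D5:**
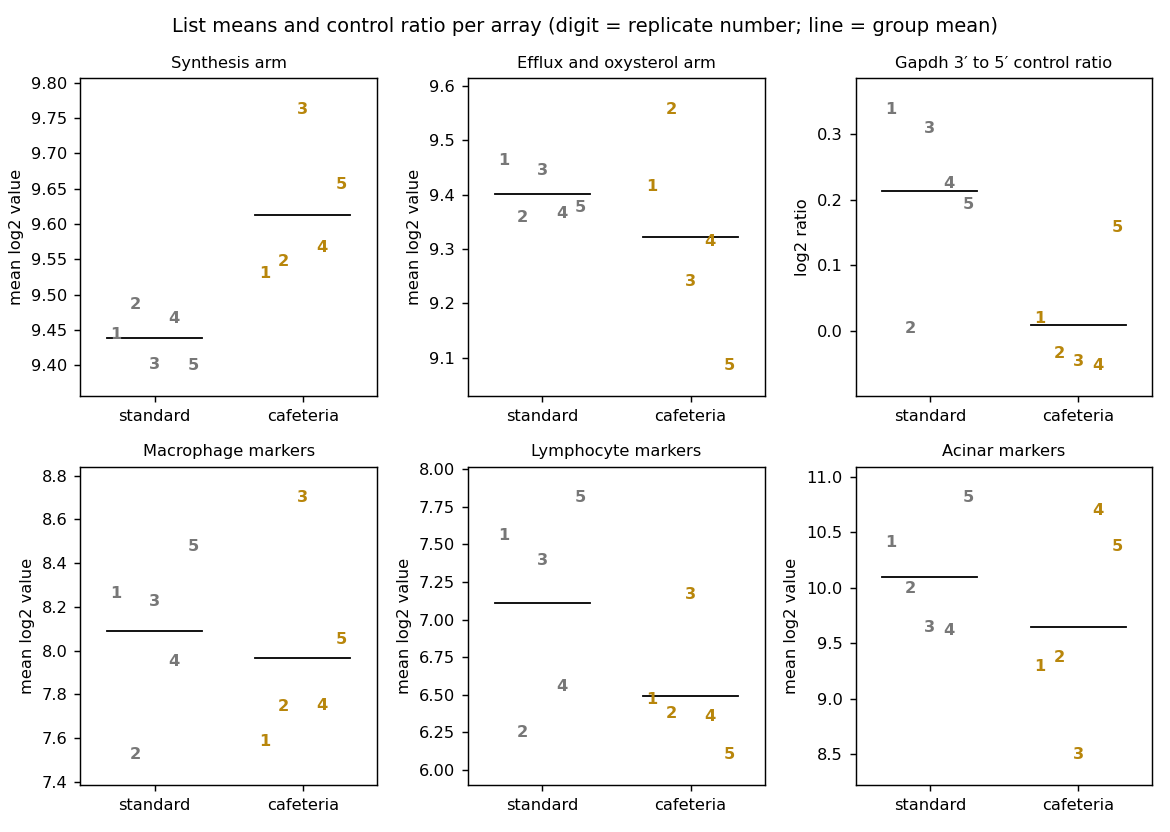
Mean log2 value of the synthesis arm, of the efflux and oxysterol arm and of the macrophage, lymphocyte and acinar markers, and the log2 Gapdh 3′ to 5′ control ratio, on each array (y axes start near the lowest value); digits are replicate numbers and lines group means. The synthesis panel shows cafeteria arrays at 9.53 to 9.76 above standard arrays at 9.40 to 9.49, the efflux panel shows overlap with cafeteria 5 lowest at 9.09, and in the control ratio panel standard 2 lies with the cafeteria arrays.

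The count of 8 synthesis genes at an unadjusted p under 0.05 depended on single arrays, on scaling, on the covariates above and on the choice of probeset. It was 5 without standard 1, standard 5, cafeteria 3 or cafeteria 5, 4 with median centring and 11 with the mean over each gene's probesets, while the synthesis median stayed between 0.16 and 0.26 under the 24 alternatives run. The share of all probesets higher at an unadjusted p under 0.05 is given here for the main fit alone (5.51%), so the other counts stand without their own background. Pmvk, Fdps, Sqle and Ch25h kept an unadjusted p under 0.05 under all 24, and no gene of the list passed the adjusted test under any of them (lowest adjusted p 0.254).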

How the data were processed

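Gene expression was measured in islets on 10 Affymetrix GeneChip Rat Genome 230 2.0 arrays, 5 per diet. The deposited values are linear intensity values made with MAS5, per the submitters' processing notes (no version or parameters given in the sources used here). In the table their mean after trimming 2% at each end is 500.1 to 500.2 on every array, so a change in total RNA cannot be seen; no detection calls were used. Depth does not apply to arrays, and 5 arrays per group limit the precision.

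Values were transformed as log2(value + 14.15), the 10th percentile of all values, so that folds are on that scale and understate changes of dim genes. Of 31099 probesets 57 were controls; of the other 31042, 20826 had 1 gene symbol, 436 several and 9780 none. The 18625 whose average exceeded the 40th percentile were tested with limma 3.58.1 (R 4.3.3; lmFit and eBayes), two-sided, with Benjamini-Hochberg adjustment and a threshold of 0.05; the script was tested on simulated data. Confidence intervals are at 95%. Per-array indices and ratios were compared with exact permutation tests over 252 divisions, whose smallest p is 0.00794. Symbols came from the platform annotation, and all 32 measured genes had the same symbol in RefSeq. Full values are given for the genes of lowest p by role (8 synthesis, 4 efflux and oxysterol, sensing genes under 0.05), and up to 3 genes of lowest p per further list. The members and lists were chosen with earlier results of these data known; the 8-letter SRE search and the array order of Abca1 and Insig1 were added after their values were seen. Alternatives covered pseudocounts (1, 64), filters (none, 60th percentile), scaling, variance model, array weights, replicate block, covariates, the choice of probeset and leaving out each array.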

Additional observations from a re-analysis of the deposited data

Results flagged for a closer look

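Dixon's criterion was applied to 86 sets of 5 arrays (the genes, arm means, marker indices and control ratios of either diet). An array stood apart from the remaining 4 in 8 of them; about 1 in 20, or 4.3 sets, would do so by chance. Values here are on the log2 scale. In the cafeteria group, replicate 5 was lowest for Mvk at 7.67 (others 8.17 to 8.36) and for Mylip at 8.45 (others 8.74 to 8.80), and replicate 1 was lowest for Lss at 9.79 (others 10.03 to 10.07). In the standard group, replicate 2 was highest for Mvd at 7.68 (others 7.35 to 7.40). Standard replicate 3 was lowest for Stard4 at 8.10 (others 8.22 to 8.24). Standard replicate 5 was lowest for Tm7sf2 at 8.56 (others 8.66 to 8.69) and for Sc5d at 9.93 (others 10.51 to 10.73), and highest for the endothelial marker index at 10.26 (others 9.86 to 9.92).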

How the results depend on the processing

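Over 24 alternatives 733 values of the 32 genes kept their direction and 32 turned, in 11 genes whose unadjusted p was above 0.05 with all arrays; the cause was not tested. As log2 differences, with the Gapdh ratio in the model Mvk was −0.14, Ebp −0.090, Scap 0.051, Nr1h2 −0.11 and Lpcat3 −0.0026. With probesets of a gene averaged Srebf1 was 0.15, Scap 0.032 and Insig2 0.073. With median centring Tm7sf2 was −0.020 and Ebp −0.025, with quantile normalization Ebp was −0.0047, with array weights Tm7sf2 was −0.0089, and with the acinar index Srebf2 was 0.044 and Scap 0.037. With 1 array left out, the ranges that crossed 0 were −0.015 to 0.070 for Tm7sf2, −0.046 to 0.055 for Ebp, −0.059 to 0.017 for Srebf1, −0.12 to 0.053 for Srebf2, −0.053 to 0.055 for Scap, −0.12 to 0.017 for Insig2, −0.086 to 0.0054 for Mylip and −0.029 to 0.027 for Npc2. The efflux and oxysterol median, with Mylip at both ends, ran from −0.086 to 0.0054 and was above 0 only without cafeteria 5. The synthesis median ran from 0.17 to 0.24, and the probesets past the adjusted threshold from 0 to 1 (1 without standard 2, no gene of the list). Deviations of same-numbered arrays correlated at 0.0033, 0.30, 0.25, −0.0017 and 0.14 for numbers 1 to 5, and 2 of 5 standard arrays were closest to their own number. The beta-actin 3′ to 5′ log2 ratios were 1.52, 1.33, 1.68, 1.47 and 1.43 on standard arrays 1 to 5. On cafeteria arrays 1 to 5 they were 1.36, 1.17, 1.59, 1.33 and 1.54. The main fit and the permutation tests assumed no pairing, and whether same-numbered arrays shared a batch was not tested. With the replicate block the synthesis median was 0.20, the efflux and oxysterol median −0.056, and 0 probesets passed, while Nr1h3, at 0.36, had an unadjusted limma p of 0.0353. Insig1, at 0.39, had an SE of 0.086 with the block and 0.163 without it. Its limma p with the block was 0.00253 unadjusted and 0.319 adjusted. Without detection calls it is not known which dim readings, such as those of Nr1h3, lie above background.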
